A study of Schizosaccharomyces pombe with 24 samples.

Results

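The subtelomeric protein-coding genes of chromosomes I and II of the fission yeast Schizosaccharomyces pombe are the genes with an mRNA that lie wholly within 100000 bases of a chromosome end in the annotation deposited for the endogenous reporter site. The left end of a chromosome is its base 1, and the right end is the largest feature coordinate of that sequence, 5579133 on I and 4545916 on II. By this rule 122 of 5113 protein-coding genes were members, or 2.39%. The left and right ends of I held 32 and 33 members, and the left and right ends of II held 31 and 26. The genes of the rest of each chromosome, 2271 on I and 1806 on II, served for comparison. The marker genes tlh1 and tlh2, which encode RecQ-type DNA helicases, were both members and lay outermost at the left end of I and the right end of II.

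The annotation belongs to a chromatin immunoprecipitation sequencing (ChIP-seq) study of H3K9me2 and H3K9me3, the forms of histone H3 that carry methyl groups on lysine 9. It has 24 libraries in 24 groups of 1 library, since each strain was immunoprecipitated once for each mark. Every strain carried an ade6+ reporter with a tet operator array. The ectopic-site strains (14 libraries) all had the allele ura4D::10xteto-ade6+ and were labelled clr4D, swi6D, swi6Dmst2D, swi6Dset1D, swi6Dmst2Dset1D, set1Dmst2D and WT. The endogenous-site strains (10 libraries) all had cenHD::10xteto-ade6+ and were labelled swi6D, swi6Dmst2D, swi6Dset1D, swi6Dmst2Dset1D and WT. In the annotations the reporters lay in the mating-type region of II and on III, outside the 4 windows. No value per library was analysed here, so nothing below is a level of methylation or expression in any of these strains. The values describe the genome annotation the study used, with no replicate error, and no test was made, since genes of 1 genome are not replicates. The 4 ends are given side by side, and the spread of other 100 kb windows of the same chromosome stands beside them.

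Subtelomeres are the stretches of a chromosome next to the telomere repeats. In fission yeast they form heterochromatin, in which Clr4 methylates lysine 9 of histone H3 and HP1 proteins such as Swi6 bind the methylated histone. Genes there are often copied between ends, and many are kept repressed in growing cells.

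Many of these genes had close copies. A protein is called near-identical here where at least 90% of its aligned residues match another protein of the genome and the alignment covers at least 80% of both. By this measure 50 of 122 members had a near-identical protein, or 41% (95% Wilson interval 32.7% to 49.9%, which covers counting only), against 120 of 4074 genes in the rest of I and II, or 2.95%. The shares at the 4 ends were 46.9% at the left end of I, 24.2% at its right end, 54.8% at the left end of II and 38.5% at its right end. All 4 lay above every 100 kb window elsewhere, where the share reached 13.5% in 53 windows of I and 9.3% in 43 windows of II. At 100% identity over the aligned residues, 32 members had a partner, or 26.2%, against 1.2% of the rest, and for 27 of the 32 a partner also had the same coding length. With the limit set at 50% identity, 70 members had a related protein, or 57.4%, against 7.78% of the rest.

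A set of short genes with 1 copy at each end shows how alike the copies are. The genes ftm2, ftm3, ftm6 and ftm7, each annotated as a protein with transmembrane helices, have a coding sequence of 441 bases and differ at 2 of these positions. The last 261 coding bases are shown 5′ to 3′ from the NCBI RefSeq assembly ASM294v3, for ftm2 (left end of I, chrI:32410-32670, plus strand), ftm3 (right end of I, chrI:5564211-5564471, minus strand), ftm6 (left end of II, chrII:10749-11009, plus strand) and ftm7 (right end of II, chrII:4501956-4502216, minus strand). Coordinates beside sequences are those of ASM294v3, and at the right end of II those of the deposited annotation are 6539 bases higher. Capitals mark the 2 positions at which the set varies.
ftm2: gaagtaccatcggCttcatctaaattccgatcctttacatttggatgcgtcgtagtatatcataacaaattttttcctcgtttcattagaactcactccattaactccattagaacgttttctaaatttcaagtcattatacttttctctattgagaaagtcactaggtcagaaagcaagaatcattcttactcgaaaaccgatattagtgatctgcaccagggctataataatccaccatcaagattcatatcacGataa
ftm3: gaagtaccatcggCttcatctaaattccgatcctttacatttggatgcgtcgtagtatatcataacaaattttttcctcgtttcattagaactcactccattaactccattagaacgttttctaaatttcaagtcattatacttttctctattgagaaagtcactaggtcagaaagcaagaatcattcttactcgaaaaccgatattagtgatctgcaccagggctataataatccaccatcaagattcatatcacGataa
ftm6: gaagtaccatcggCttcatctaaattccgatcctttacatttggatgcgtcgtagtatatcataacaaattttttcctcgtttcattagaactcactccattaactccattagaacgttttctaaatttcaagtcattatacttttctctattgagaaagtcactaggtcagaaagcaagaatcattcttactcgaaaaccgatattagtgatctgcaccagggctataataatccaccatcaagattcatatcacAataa
ftm7: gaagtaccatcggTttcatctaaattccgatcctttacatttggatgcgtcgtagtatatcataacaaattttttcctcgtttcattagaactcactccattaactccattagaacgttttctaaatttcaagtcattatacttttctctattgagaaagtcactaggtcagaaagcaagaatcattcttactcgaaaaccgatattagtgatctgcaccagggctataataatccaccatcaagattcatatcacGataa
The coding DNA of ftm2 and ftm3 was identical, although the genes lie at opposite ends of chromosome I. The ftm6 and ftm7 genes each differed from them at 1 base, at different positions. All 7 genes of the genome with an ftm name were members.

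The helicase genes tlh1 and tlh2 were as close. On chromosome I, tlh1 occupies chrI:1-5662 on the minus strand and touches base 1, so its annotated coding sequence of 5662 bases is cut by the end of the sequence. The coding sequence of tlh2, on the plus strand at chrII:4533424-4539438 of the deposited annotation, is 5760 bases long, 98 bases longer, and the gene lies 6478 bases from the end. Over the 5662 bases present in both, the genes differed at 1 base. The stretch of 90 coding bases around that base is shown from ASM294v3 for tlh1 (chrI:5333-5422, minus strand) and tlh2 (chrII:4527125-4527214, plus strand), with the differing base in capitals.
tlh1: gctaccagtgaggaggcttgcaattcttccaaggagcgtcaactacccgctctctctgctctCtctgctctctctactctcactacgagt
tlh2: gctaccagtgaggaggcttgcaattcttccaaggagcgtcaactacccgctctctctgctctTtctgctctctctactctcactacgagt

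Near-identical members formed 19 groups, and 18 of these held members alone. The least alike pair was the aldo-keto reductase genes SPAC977.14c (left end of I) and SPAC750.01 (right end of I). Their proteins differed at 18 of 325 aligned residues, or were 94.5% identical, with 1056 and 978 coding bases. In the largest group, 5 uncharacterized genes, identity ranged from 95.4% to 100%. There were 51 near-identical pairs with a member: 44 joined 2 different ends, 4 lay within an end, and 3 joined the left end of II to a gene just beyond its limit. Of the 50 members, 22 had their protein at 2 ends, 12 at 3 ends and 13 at all 4 ends, and the other 3 belonged to the array described below. The map of the 4 ends shows these genes gathered in the outer part of each window.

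**Figure D1:**
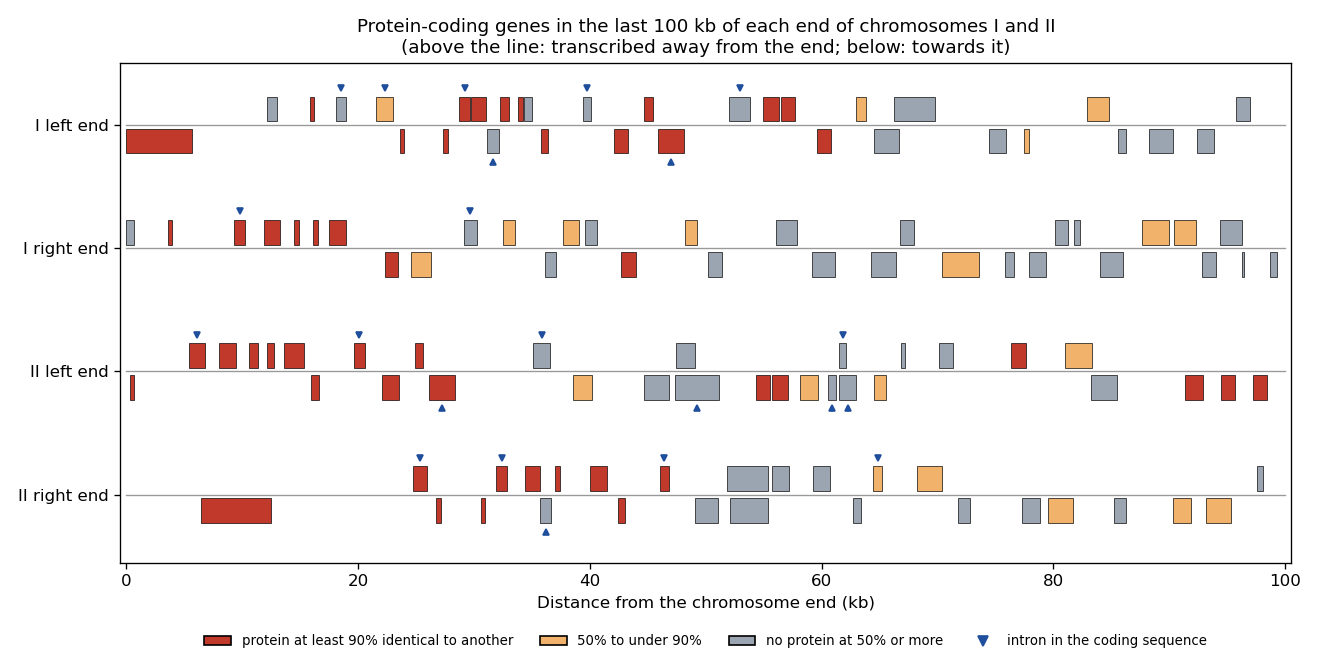
Protein-coding genes in the 100 kb at each end of chromosomes I and II, by distance from the end in kb. Boxes above a line are transcribed away from the end and boxes below it towards the end; red boxes have a protein at least 90% identical to another, orange boxes 50% to under 90%, grey boxes neither, and triangles mark an intron in the coding sequence. Of 122 genes, 50 are red and 22 carry a triangle.

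The outer genes as annotated followed a shared order at the 4 ends, with gaps in it. At the right end of I, SPAC750.06c, of a group of 5 near-identical uncharacterized genes, was followed inwards by ftm4, ftm3, the predicted methyltransferase gene SPAC750.03c and the predicted membrane transporter gene SPAC750.02c. At the left end of II the same order ran SPBC1348.01, ftm5, ftm6, SPBC1348.04 and SPBC1348.05, and went on with SPBC1348.06c, a gene with a Vel1p domain. The right end of II held SPBCPT2R1.01c, SPBPB2B2.19c, ftm7, the transporter gene SPBPB2B2.16c and the Vel1p domain gene SPBPB2B2.15. The intron-bearing sequence orphan SPBPB2B2.18 lay before ftm7, and no methyltransferase gene was annotated. DNA that holds the methyltransferase gene SPAC977.03 at the left end of I aligned there with 99.32% identity, 34515 to 39068 bases from the right end of II. The left end of I had SPAC212.01c, ftm1, ftm2 and SPAC977.03 and then the Vel1p domain gene SPAC977.05c. The uncharacterized genes SPAC977.18 and SPAC977.04 lay among them, and no transporter gene was annotated. DNA of 98.56% identity begins 34313 bases from the left end of I and 14526 bases from the left end of II. It starts inside SPBC1348.05 (chrII:13572-15378) and holds SPAC977.04 (chrI:34349-34978), so part of the transporter gene's DNA is present there. SPAC977.18 lies between ftm1 and ftm2, and SPBPB2B2.18 between SPBPB2B2.19c and ftm7. Each has an intron of 210 bases, and both lie in the alignment of 99.32% identity.

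Nearer to the ends lay other genes. From the left end of I inwards the first 5 were tlh1, the GPI-anchored protein genes SPAC212.08c and SPAC212.12, the helicase-like gene SPAC212.06c and SPAC212.04c. Next came SPAC212.03 and SPAC212.02, before SPAC212.01c. This run matched SPBCPT2R1.03, SPBCPT2R1.02 and SPBCPT2R1.01c at the right end of II, and the gaps along the run differed by 47 and 2 bases between the ends. The right end of I began with SPAC750.08c and SPAC750.07c, whose protein is identical to that of SPAC212.12. At the left end of II the first gene was SPBC1348.15, 303 bases from the end, with identical coding DNA to SPBCPT2R1.03 at the right end of II, where tlh2 was followed by SPBCPT2R1.04c, SPBCPT2R1.03 and SPBCPT2R1.02.

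These copies sat at different depths. The uncharacterized gene that begins the order lay 5450 bases from the left end of II, 9330 bases from the right end of I, 28737 bases from the left end of I and 31904 bases from the right end of II. The transporter gene lay 13571 bases from the left end of II, 17487 bases from the right end of I and 39983 bases from the right end of II, always with a coding sequence of 1458 bases.

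Annotated spacing was alike in some copies. Gaps run between annotated gene ends, so they also differ where untranslated regions are annotated differently. SPBC1348.01 has a 3′ untranslated region of 511 bases and its copy SPAC750.06c has 0. Their gaps to ftm5 and ftm4 were 1150 and 1662 bases. The gap of 106 bases between SPAC212.01c and ftm1 contains a gap of 100 bases in the sequence. In 22 comparisons of neighbouring members whose near-identical partners are also neighbours, the 2 gaps differed by at most 10 bases in 6 and were equal in 2. The gap between the Vel1p domain gene and the next gene inwards was 3048 bases at the left end of II and 3050 bases at the right end of II. It was also 3048 bases at the left end of I, where the next gene, SPAC977.06, has no near-identical protein. The largest difference was 3977 bases, between the gap of 4757 bases from SPBC1348.15 inwards to SPBC1348.01 at the left end of II and the gap of 780 bases from SPBCPT2R1.03 outwards to SPBCPT2R1.04c at the right end of II.

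The methyltransferase genes illustrate copies that differ slightly. Each has 438 coding bases, of which 3 vary in the set, and the proteins were 98.6% to 99.3% identical. The first 90 coding bases, with 2 of the 3 variable bases in capitals, are shown from ASM294v3 for SPAC977.03 (left end of I, chrI:33835-33924, plus strand), SPAC750.03c (right end of I, chrI:5562956-5563045, minus strand) and SPBC1348.04 (left end of II, chrII:12176-12265, plus strand).
SPAC977.03: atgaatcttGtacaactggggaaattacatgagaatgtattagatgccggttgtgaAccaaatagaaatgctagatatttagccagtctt
SPAC750.03c: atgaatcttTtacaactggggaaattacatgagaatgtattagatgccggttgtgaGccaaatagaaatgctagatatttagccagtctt
SPBC1348.04: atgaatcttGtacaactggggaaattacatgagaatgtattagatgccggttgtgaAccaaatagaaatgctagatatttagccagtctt
In this stretch the genes at the left ends of I and II had the same bases, and the gene at the right end of I differed from both at 2 positions.

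A second run of genes was shared by the left ends of I and II alone. It held pfl6 and SPBC1348.08c, which encode cell surface glycoproteins of 1251 coding bases, then ayr2 and SPBC1348.09, short chain dehydrogenase genes of 711 bases, then plb4 and SPBC1348.10c, phospholipase genes of 2022 bases. The proteins of each of these 3 pairs were identical. The coding DNA was also identical for the dehydrogenase and phospholipase genes and differed at 1 base for the glycoprotein genes. Flocculins such as the pfl proteins mediate adhesion between cells.

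Of the 44 pairs that joined 2 ends, 41 were transcribed in the same direction relative to their end and 3 in the opposite direction. The 3 exceptions were fex1 with fex2, which encode fluoride export channels of the plasma membrane, and both pairs of L-asparaginase genes, whose product splits asparagine into aspartate and ammonia. The fex1 gene and its asparaginase neighbour SPAC977.12 lay 54936 and 56491 bases from the left end of I, and fex2 and its neighbour SPBPB8B6.05c lay 55750 and 54321 bases from the left end of II. The 183-base gap between them was the same at both ends, but their order from the end was reversed. The fex1 and fex2 coding sequences of 936 bases differed at 1 base and encode identical proteins. Their first 60 coding bases are shown from ASM294v3, with that base in capitals, for fex1 (chrI:55274-55333, plus strand) and fex2 (chrII:56726-56785, minus strand).
fex1: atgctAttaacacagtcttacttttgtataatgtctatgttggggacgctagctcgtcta
fex2: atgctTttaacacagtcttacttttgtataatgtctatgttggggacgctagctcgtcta

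The asparaginase genes beside them carried more differences, all near the end of the gene. Over 1071 coding bases SPAC977.12 and SPBPB8B6.05c differed at 13 bases and 1 residue, and all 13 lay in the last 147 bases, shown from ASM294v3 for SPAC977.12 (chrI:57416-57562, plus strand) and SPBPB8B6.05c (chrII:54497-54643, minus strand) with the differing bases in capitals.
SPAC977.12: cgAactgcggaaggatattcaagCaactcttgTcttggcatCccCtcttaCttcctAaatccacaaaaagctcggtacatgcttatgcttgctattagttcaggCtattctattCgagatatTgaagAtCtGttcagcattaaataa
SPBPB8B6.05c: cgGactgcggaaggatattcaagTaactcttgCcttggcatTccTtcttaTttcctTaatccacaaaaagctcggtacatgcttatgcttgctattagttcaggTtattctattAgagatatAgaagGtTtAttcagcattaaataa
The other asparaginase pair, SPAC186.03 at the right end of I and SPBPB21E7.09 at the left end of II, differed at 15 of 1083 coding bases and 5 residues. Of these differences, 9 lay in the first 132 bases, shown for SPAC186.03 (chrI:5535198-5535329, plus strand) and SPBPB21E7.09 (chrII:76318-76449, plus strand).
SPAC186.03: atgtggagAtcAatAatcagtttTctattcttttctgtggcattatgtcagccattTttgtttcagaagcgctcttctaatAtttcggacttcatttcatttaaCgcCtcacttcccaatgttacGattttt
SPBPB21E7.09: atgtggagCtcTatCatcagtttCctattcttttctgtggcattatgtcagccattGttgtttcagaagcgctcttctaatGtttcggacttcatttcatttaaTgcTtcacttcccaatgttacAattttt
Between the 2 pairs the proteins were 69.4% to 70.2% identical. All 13 differences of the pair beside fex thus lay in the last 147 bases. In the other pair 9 of 15 lay in the first 132 bases, and the positions of the others are not given. Both stretches were chosen after the differences were seen.

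The plot of links between ends shows both patterns. Most lines join genes in the outer 50 kb, and the 3 pairs in opposite direction lie beyond 50 kb on at least 1 side.

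**Figure D2:**
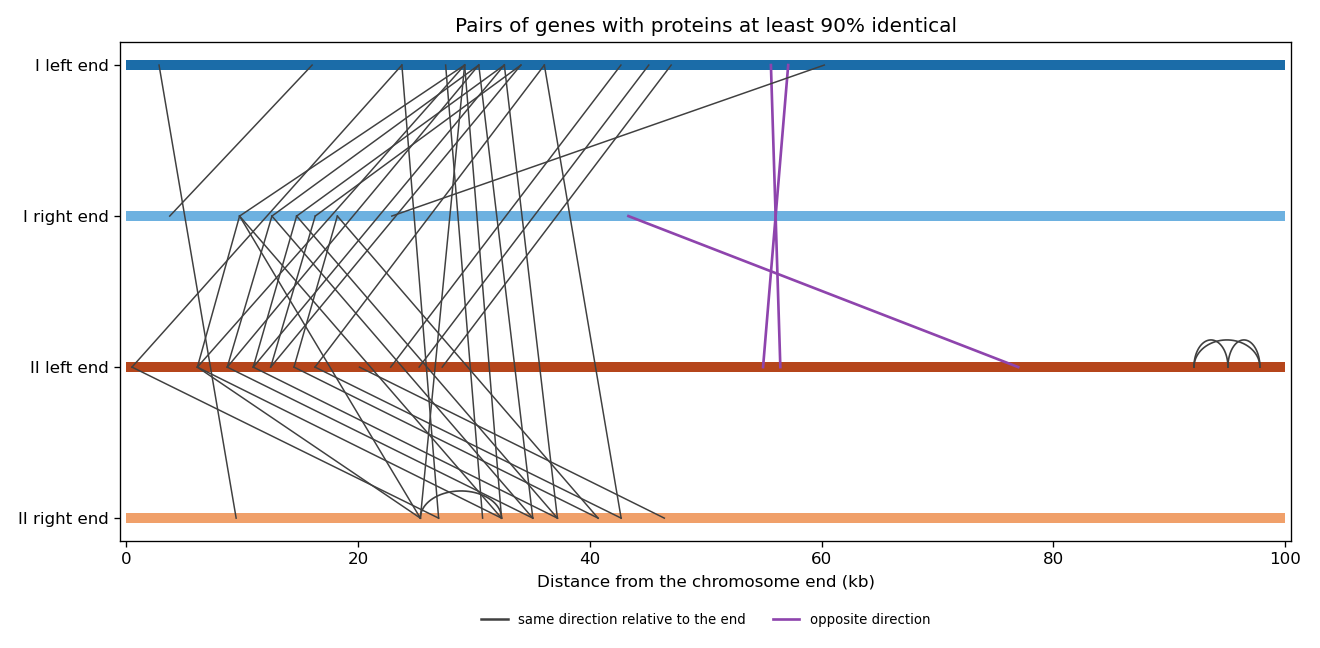
Pairs of members with proteins at least 90% identical, joined by a line from the middle of each gene. The 4 bars are the 100 kb at each end, by distance from the end in kb; grey lines join genes transcribed in the same direction relative to their end (41 pairs between ends) and purple lines the opposite direction (3 pairs), and arcs join genes of 1 end (4 pairs).

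The only group of copies side by side was an array at the inner edge of the left end of II. The genes SPBPB10D8.04c, SPBPB10D8.05c and SPBPB10D8.06c, predicted membrane transporters of 1140 coding bases, were identical in their coding DNA to each other and to SPBPB10D8.07c, which reaches past the 100 kb limit and is no member. The gaps along the array were 1619, 1619 and 1478 bases. The first 60 coding bases, the same in all 4 genes, are shown from ASM294v3 at SPBPB10D8.04c (chrII:92804-92863, minus strand).
SPBPB10D8.04c: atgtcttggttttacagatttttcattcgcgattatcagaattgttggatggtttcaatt

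Shared DNA reached beyond the coding sequences. Each 100 kb window was aligned to the whole of ASM294v3, and alignments of at least 1000 bases with at least 90% identity to another place were kept. They covered 50.6% of the window at the left end of I, 22.2% at the right end of I, 42.5% at the left end of II and 40.4% at the right end of II. In the outer 50 kb the covered shares were 93%, 44.5%, 59.8% and 80.9%, in the same order of ends. In the inner 50 kb they were 8.28% and 25.2% at the left ends of I and II, and no base was covered at either right end. Most of the inner cover at the left end of II was the transporter array and its spacers, which aligned to themselves over 8277 bases with 100% identity.

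The longest alignment joined the ends of chromosome II. It spanned 20846 aligned bases with 99.63% identity, from base 0 to 20841 at the left end and from 26454 to 47258 at the right end, counted inwards. The next, of 15417 bases with 98.56% identity, joined the left ends of I and II. An alignment of 12741 bases with 99.68% identity covered the outermost 12737 bases of the left end of I, tlh1 included, and lay between 6831 and 19559 bases from the right end of II. In the first and the last of these, the outermost bases of an end matched an inner stretch of another end. Every alignment kept had both sides at the 4 ends of I and II, counting a stretch of the array that runs past the limit.

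The sequence itself was incomplete at the ends. Besides tlh1 at the left end of I, SPAC750.08c touched the last base of I. It is annotated as an NAD-dependent malic enzyme and has 687 coding bases. A gap of 100 bases (chrI:29664-29763) lies directly before ftm1, whose coding sequence of 953 bases was cut there, against 1035 bases in its near-identical partners ftm4, ftm5 and SPBPB2B2.19c. Another gap of 100 bases (chrII:80202-80301) lies at the left end of II, before the cysteine transporter gene SPBPB10D8.01. Cut genes count with the length that is annotated.

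Of the 72 members without a near-identical protein, 20 had a relative at 50% identity or more, or 27.8%, and the others had none. Examples chosen after their values were seen follow. The hexose transporter gene ght3, whose product is annotated as a gluconate symporter, was 84.2% identical in protein to ght4 on the rest of II. The phosphate transporter gene pho84 was 83.8% identical to pho841, and the acid phosphatase gene pho1 was 58.1% identical to pho4. The cationic amino acid transporter gene cat1 was 79.6% identical to aat1. The enolase gene eno102 was 66.1% identical to eno101, and the sulfate transporter gene sul2 was 65.6% identical to sul1.

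By the wording of their products, members were often transporters and enzymes of small molecules. Products were sorted into families by keywords. Transport words were in 21 members, or 17.2%, against 3.58% of the rest of I and II, and the 4 ends held 4, 6, 8 and 3 of them. Hydrolase words were in 13 members, or 10.7%, against 4.32% of the rest, and oxidoreductase words in 10 members, or 8.2%, against 4.02%. Cell surface words were in 6 members, or 4.92%, against 0.54%. The sugar metabolism words were only galactokinase, epimerase, galactose-1-phosphate and hexose. They were in 5 members (gal1, gal7, gal10, ght3 and ght7), or 4.1%, against 0.147%. This contrast depends on the choice of words that name these genes, and ght3 and ght7 also counted under transport. Transcription factor words were in 2 members, or 1.64%, against 2.58%. Several of the counted genes were copies of each other, so the counts are not of independent genes. Words for conserved genes or sequence orphans, which name no function, were in 16 members, or 13.1%, against 8.51%. Helicase words were in 3 members, or 2.46%, against 1.3%. With these words counted as well, no family word was found for 48 members, or 39.3%, against 75.3% of the rest.

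Many members have no given function. The products of 28 members were listed as uncharacterized protein in the NCBI annotation, or 23%, against 6.57% of the rest. A gene name was given to 47 members, or 38.5%, against 84.2%.

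Examples of genes for uptake and for enzymes follow for each end, several of them picked after their values were seen. They were not counted as a set against the rest of the genome. At the left end of I were ght3, the siderophore-iron transporter gene str3, shu1, known for a role in heme uptake and listed as a sequence orphan, and dak2, which encodes dihydroxyacetone kinase. The right end of I had cat1, the proline permease gene put4, sul2, a urea transporter gene (SPAC869.03c) beside a formamidase-like gene (SPAC869.04), and the alpha-galactosidase gene mel1. At the left end of II lay ght7, another urea transporter gene (SPBPB8B6.02c), the acetamidase gene fah1 and a cysteine transporter gene (SPBPB10D8.01). The right end of II carried pho84 and pho1, the sterol deacetylase gene say1 and the galactose genes.

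The galactose genes gal7, gal10 and gal1 lay together at 49106 to 55684 bases from the right end of II, with tgd1, a nucleotide-sugar dehydratase gene, among them. Their products, a uridylyltransferase, an epimerase and a galactokinase, carry out the steps by which galactose enters glycolysis. The tgd1 and gal10 genes (chrII:4490523-4493852 and chrII:4490562-4494074 of the deposited annotation) lie on opposite strands and overlap, with a gap of -3291 bases. Their annotated 3′ untranslated regions are 2157 bases long in tgd1 and 1254 bases in gal10. None of these 4 genes had a relative at 50% identity.

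Of the gene lists, 5 of 11 galactose and hexose genes were members (gal1, gal7, gal10, ght3, ght7), as were 2 of 9 flocculin genes (pfl6, pfl9), 2 of 6 amino acid transporter genes (cat1, put4), 2 of 3 phosphate genes (pho1, pho84) and 1 of 5 iron genes (str3). Of names given for meiosis and sporulation, isp3 was the 1 member among 5 isp genes, with 0 of 92 mug, 19 meu and 6 mcp genes. Of 17 wtf genes, a family of meiotic drivers found mainly on chromosome III, 0 were members. Over all protein-coding genes 2.39% were members, so that 0 members in lists of these sizes is near that share and is no result about the members.

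Members were packed more loosely than other genes. There were 32, 33, 31 and 26 protein-coding genes per 100 kb at the left and right ends of I and of II, against 42.2 over the rest of I and 41.6 over the rest of II. A single window of I (22 genes) and a single window of II (25 genes) held fewer than the ends of the same chromosome. Coding bases made up 33.2%, 34.4%, 32.9% and 30.8% of the 4 ends, against 60.1% of the rest of I and 58% of the rest of II.

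The gaps between neighbouring protein-coding genes were wide. The median gap was 1569 and 1500 bases at the left and right ends of I and 1338 and 1572 bases at those of II, against 231 bases over the rest of I and 252 bases over the rest of II. The highest median of any other window was 471 bases on I and 518 bases on II, so the ends and the windows did not overlap. Over the 4 ends together the median was 1454 bases (95% order-statistic interval 1111 to 1910, n = 118 gaps), against 240 bases over the rest (225 to 257, n = 4075).

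Gaps also depend on where gene ends are annotated, and how much of the difference goes with this was not tested. No untranslated region was annotated for 35 members, or 28.7%, against 3.56% of the rest, and a gap beside such a gene starts at its coding sequence. Measured from coding sequence to coding sequence, the median gap was 1662 bases at the ends, against 640 bases in the rest. Counting RNA genes as neighbours as well, it was 168 bases at the ends, against 32 bases in the rest.

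**Figure D3:**
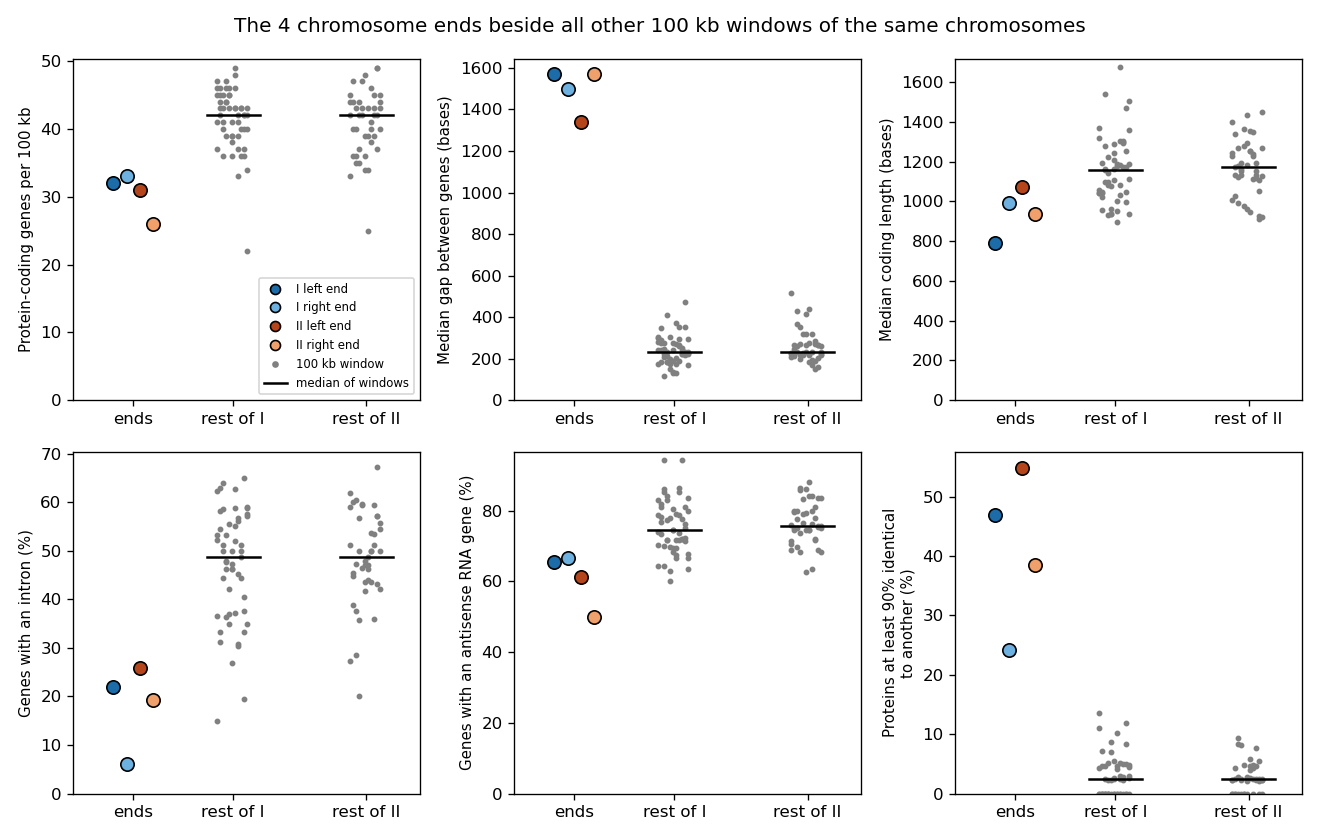
Each of the 4 chromosome ends (coloured points, left) beside the other 100 kb windows of chromosomes I and II (grey points, 53 and 43 windows, with their median as a black bar). Panels give genes per 100 kb, the median gap and the median coding length in bases, and the percentages of genes with an intron, with an antisense RNA gene and with a near-identical protein; the ends lie above all windows for the gap and for near-identical proteins.

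The widest gap of each end was 6495 bases between tlh1 and SPAC212.08c at the left end of I, 5389 bases between SPAC750.06c and SPAC750.07c at the right end of I, 6739 bases between SPBC1348.10c and SPBC1348.12 at the left end of II, and 12283 bases between SPBCPT2R1.04c and tlh2 at the right end of II. The 4 pseudogenes annotated at the right end of II lay in the gap beside tlh2. The 4 ends held 5, 0, 4 and 4 pseudogenes, against 5 in the whole rest of I and II. Long terminal repeats, the remnants of retrotransposons, numbered 12, 4, 10 and 7, or 8.25 per 100 kb, against 1.3 per 100 kb in the rest. No tRNA gene lay in any of the 4 windows, as in 26 of 53 other windows of I and 15 of 43 of II.

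Gaps were wide in every orientation. For neighbours on the same strand the median gap was 1619 bases at the ends, against 306 bases in the rest. Divergent genes, which start next to each other, were 1396 bases apart at the ends, against 650 bases in the rest. Convergent genes, which end next to each other, were 922 bases apart at the ends, while those of the rest overlapped, with a median gap of -54 bases. Genes of 6 neighbouring pairs overlapped at the ends, or 5.08% of 118, against 22.6% in the rest. Among these, tgd1 and gal10 had a gap of -3291 bases, and the acetamidase gene fah1, 1644 bases long, lay wholly inside the transcription factor gene grt1 on the other strand.

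**Figure D4:**
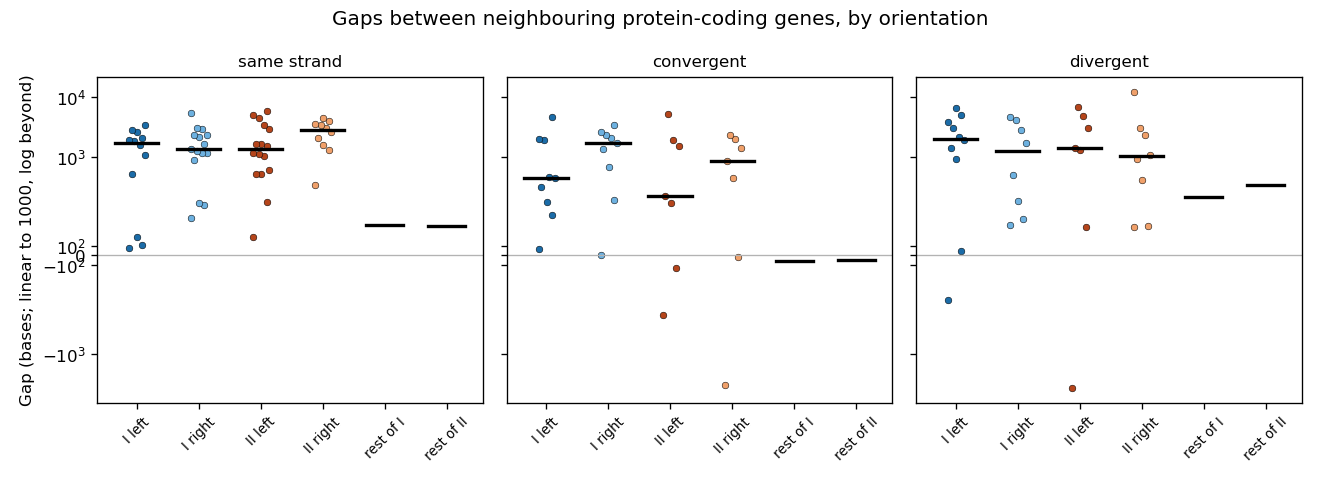
Gap in bases between neighbouring protein-coding genes at the 4 ends, 1 point per pair, by orientation, with the median of each end as a black bar; the medians of the rest of I and II are bars without points. The axis is linear up to 1000 bases either side of 0 and logarithmic beyond, and values under 0 are overlapping or nested genes; the median of convergent genes is 922 bases over the 4 ends and -54 bases in the rest.

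Strand use was similar at the ends and elsewhere. Of 118 neighbouring pairs, 53 lay on the same strand, or 44.9%, against 45% in the rest. The ends ranged from 38.7% at the left end of I to 53.3% at the left end of II, inside the range of windows, 31.4% to 58.5% on I and 27.3% to 63.6% on II. The plus strand carried 60 of 122 members, or 49.2%, against 49.9% of the rest, and 63 members were transcribed away from their chromosome end.

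Coding sequences were shorter at the ends in the median, with ends that lay among the windows. The median coding length was 790 and 993 bases at the left and right ends of I and 1071 and 939 bases at those of II, against 1131 bases over the rest of I and 1168 bases over the rest of II. The left end of I lay below all 53 other windows of its chromosome, while 8 windows were below the right end of I, 10 below the left end of II and 3 below its right end. Together the median was 944 bases (interval 789 to 1071), against 1152 bases in the rest (1122 to 1179). Taking 1 gene from each near-identical group gave 993 bases at the ends, against 1161 bases in the rest.

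The longest coding sequence of each end was tlh1 with 5662 bases at the left end of I, sul2 with 2523 bases at its right end, SPBC1348.10c and the urea transporter gene SPBPB8B6.02c with 2022 bases each at the left end of II, and tlh2 with 5760 bases at its right end. The shortest of each end were SPAPJ695.02 with 213 bases at the left end of I, SPAC922.09 with 216 bases at its right end, SPBPB21E7.10 with 255 bases at the left end of II and ecl3, named for extending chronological lifespan, with 270 bases at its right end. Median GC content of the coding sequence was 38.5%, 39.1%, 37.5% and 37% at the 4 ends, against 39.5% in the rest of I and 39.6% in the rest of II, and its quartiles overlapped (35.8% to 40.1% over the 4 ends, 37.6% to 41.5% over the rest of I).

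Introns were sparse. An intron in the coding sequence was annotated in 22 members, or 18% (12.2% to 25.8%), against 47.7% of the rest. The shares were 21.9% and 6.06% at the left and right ends of I and 25.8% and 19.2% at those of II, against 46.6% over the rest of I and 49.1% over the rest of II. Of the other windows, 2 of 53 on I lay below the left end, none below the right end, and on II 1 of 43 lay below the left end and none below the right. Members held 30 introns, with 3 or more in 2 genes, or 1.64%, against 13% of the rest. The zinc finger gene SPBC1348.12 at the left end of II had 4 introns, and SPBPB2B2.18 at the right end of II had 3. At the left end of I, SPAC977.18 had the most with 2, and at the right end of I SPAC750.06c and the L-lactate dehydrogenase gene SPAC186.08c had 1 each.

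A single family held many of the introns. The largest family at 50% identity held 9 uncharacterized genes, all of them members: SPAC212.01c and SPAC212.04c at the left end of I, SPAC750.06c at its right end, SPBC1348.01 and SPBC1348.07 at the left end of II, and SPBCPT2R1.01c, SPBCPT2R1.04c, SPBPB2B2.07c and SPBPB2B2.14c at its right end. Each of these 9 genes had exactly 1 intron, so that they made up 9 of the 22 members with an intron. Among the other 113 members 13 had an intron, or 11.5%. These 13 include SPAC977.06 at the left end of I, with 570 coding bases and 1 intron of 50 bases. It lies 3048 bases inwards of its Vel1p domain gene, as SPBC1348.07 does at the left end of II, in DNA that aligned between these ends with 98.56% identity. No protein met the limits of 50% identity and 80% coverage with it, so the family and this share depend on those limits.

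The intron of this family lay at like places in the coding sequence. It followed 490 coding bases in 6 of the genes, 418 in 2 and 494 in 1. In 5 genes the intron had 58 bases and the same sequence, shown at SPAC212.01c (chrI:29228-29285, plus strand, ASM294v3). It had 50 identical bases in SPBC1348.07 and SPBPB2B2.14c, shown at SPBC1348.07 (chrII:20059-20108, plus strand), and 34 bases in SPBPB2B2.07c (chrII:4474404-4474437, minus strand). Capitals mark the first 2 and last 2 bases of each intron.
SPAC212.01c: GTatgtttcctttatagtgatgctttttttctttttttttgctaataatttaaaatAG
SPBC1348.07: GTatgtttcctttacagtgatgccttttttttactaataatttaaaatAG
SPBPB2B2.07c: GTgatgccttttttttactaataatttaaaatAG
The 34-base intron equals the last 34 bases of the 50-base intron. The 16 coding bases before it complete the match, so that the 50-base sequence is present whole in SPBPB2B2.07c but its first 16 bases are annotated as coding there.

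Of the 30 introns of members, 29 began with GT and ended with AG, or 96.7%, against 99.5% of 4103 introns of the rest in the NCBI annotation. The exception was the 11-base intron of SPBPB21E7.02c, a gene of the phosphoglycerate mutase family at the left end of II, the only member intron under 30 bases, against 16 such introns in the rest. It is shown in capitals between 24 coding bases on each side (chrII:61084-61142, minus strand, ASM294v3).
SPBPB21E7.02c: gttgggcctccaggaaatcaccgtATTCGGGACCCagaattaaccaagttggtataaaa

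Antisense RNA genes were somewhat fewer over members. An lncRNA or sncRNA gene, that is a long or short RNA gene with no protein, on the opposite strand overlapped 75 of 122 members by at least 1 base, or 61.5% (52.6% to 69.6%), against 75.8% of the rest. The shares were 65.6% and 66.7% at the left and right ends of I, against 75.3% over its rest, and 61.3% and 50% at those of II, against 76.4% over its rest. On I, 5 of 53 windows lay below each end, and on II no window of 43 did. Member genes were also shorter as annotated, with a median gene length of 1237 bases against 1775 bases in the rest. The share of all gene bases that lay under antisense RNA genes was 39.6% for members, against 42.8% for the rest, and ranged from 31.7% at the right end of II to 53.8% at the right end of I.

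Extensive overlap differed less. Antisense RNA genes covered at least 50% of the gene in 42.6% of members, against 44.4% of the rest, and at least 90% in 13.9%, against 14.3%. The number of such RNA genes on either strand was 58, 62, 55 and 57 per 100 kb at the 4 ends, against 56.1 over the rest of I and 58.8 over the rest of II. Members thus differed from other genes in how many were touched by an antisense RNA gene, and less in how much of a gene was covered.

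The 17 members covered over at least 90% of their length came from all 4 ends. At the left end of I they were SPAC212.12, SPAC212.02, SPAC977.03, pfl6 and the predicted hydrolase gene SPAC1F8.04c. The right end of I had 6, among them cat1, the pyruvate decarboxylase gene pdc102 and the cation-binding protein gene hry1, and SPAC922.05c, SPAC750.03c and SPAC750.07c. Those at the left end of II were SPBC1348.04, SPBC1348.08c, SPBPB8B6.05c and SPBPB21E7.02c, and the right end of II had the amino-acid permease gene SPBPB2B2.01 and SPBPB2B2.08. All 3 annotated copies of the methyltransferase gene were covered completely, and both copies of the pfl6 glycoprotein gene were covered over more than 90% (99.5% for pfl6 and 96.2% for SPBC1348.08c).

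Antisense annotation differed between other copies. The tlh1 and tlh2 genes had 6 and 7 antisense RNA genes, which covered 41.9% and 49.4% of the gene. Of the identical plb4 and SPBC1348.10c, plb4 had an antisense RNA gene over 26.7% of its length and SPBC1348.10c had none. The ftm7 gene had 1 over 60.8% of its length, whereas ftm2, ftm3 and ftm6 had none. The asparaginase genes beside fex had 48.7% of SPAC977.12 and 93.5% of SPBPB8B6.05c covered.

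Close copies were most frequent in the outer steps and antisense RNA genes in the innermost step. In steps of 20 kb from the end, by the middle of the gene, near-identical proteins were found for 16 of 19 members in the first step, then 18 of 30, 11 of 25, 2 of 24 and 3 of 24, the last 3 being the transporter array. Antisense RNA genes overlapped 10 of 19 members in the first step, then 11 of 30, 16 of 25, 17 of 24 and 21 of 24. Introns were present in 3 of 19, 11 of 30, 4 of 25, 4 of 24 and 0 of 24. The single ends scattered around these values, and the first step held 1 member, tlh2, at the right end of II.

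**Figure D5:**
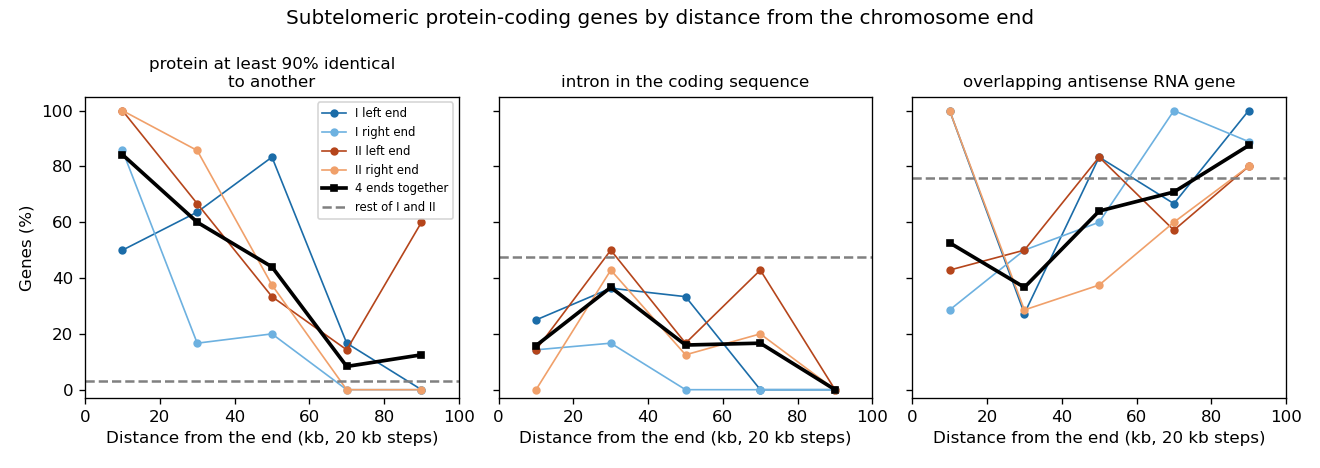
Percentage of members with a near-identical protein, with an intron and with an overlapping antisense RNA gene, in 20 kb steps from the chromosome end, for each end (coloured) and the 4 ends together (black squares, 19, 30, 25, 24 and 24 genes). Dashed lines give the rest of I and II, 2.95%, 47.7% and 75.8%; over the 4 ends together the first panel is highest next to the end and the third 80 to 100 kb away, while the left end of I has its highest share of near-identical proteins at 40 to 60 kb.

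Within the members, those with and without a near-identical protein had the same share of introns, 9 of 50 or 18% with, against 13 of 72 or 18.1% without. An antisense RNA gene overlapped 28 of 50 members with a near-identical protein, or 56%, against 47 of 72 without, or 65.3%. Median coding length was 843 bases with a near-identical protein, against 999 bases without. No untranslated region was annotated for 46% with, against 16.7% without.

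The members just inside it were isp3, whose far edge lay 96966 bases from the left end of I, SPAC922.04 at 99297 bases from its right end, SPBPB10D8.06c at 98381 bases from the left end of II and ecl3 at 98038 bases from its right end. The genes just outside were pfl8 at 101431 bases, SPAC922.03 at 102296 bases, SPBPB10D8.07c at 101140 bases and SPBC8E4.03 at 105184 bases.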

How the data were processed

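The ChIP-seq libraries were processed with Trimmomatic and BWA, per the submitters' processing notes, which give no versions. The genome build used for alignment is not given in the sources used here. Read depth is unknown, and no value per library was analysed here. The values used are start and end coordinates in bases, counted from 1, which the authors deposited in 2 genome annotations: a GFF3 file with PomBase as its source for the endogenous site, and, for the ectopic site, a file that the file headers say was made by Geneious 7.1.5. The score field held no score for any library, per the file headers and rows of the deposited files.

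Members, lists and measures were chosen with earlier results of these data known. Coding length and introns were taken from the transcript with the longest coding sequence. A gap runs from the end of a gene to the start of the next by start position, so that a nested gene (fah1 in grt1) gives a negative gap and the gap after it is counted from its own end. All 122 members had the same identifier and coding length in NCBI's annotation of ASM294v3, and their translations matched the deposited ones in 122 of 122. At the right end of II the deposited coordinates are 6539 bases higher. Less that shift, the last feature there ends 427 bases before the end of the assembly's sequence. The 5110 proteins were aligned all against all with blastp (BLAST 2.17.0, E-value of at most 1e-10), and DNA windows with blastn (word size 20, at least 1000 bases and 90% identity). Shares carry 95% Wilson intervals and medians 95% order-statistic intervals, which cover counting over genes only. Other windows were the 96 non-overlapping stretches of 100 kb of I and II outside the ends. Python 3.11.15, numpy 2.4.6, scipy 1.17.1, Biopython 1.88 and matplotlib 3.10.9 were used, and the counting was tested on simulated data.

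Genes named by rule were tlh1 and tlh2, the 5 outermost genes of each end, listed genes, near-identical groups, genes at the 100 kb limits, and at each end the longest and shortest coding sequences, the most introns, the widest gap and those covered over at least 90% by antisense RNA genes. Other named genes were chosen after their values were seen. Alternatives were other window sizes, other annotations, each end left out, and other definitions of intron, gap, antisense overlap and identity. The intron sequence of 1 gene of the largest family is not reported here.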

Additional observations from a re-analysis of the deposited data

How the results depend on the processing

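With windows of 50000 bases there were 60 members, of which 26.7% had an intron, 45% an antisense RNA gene and 68.3% a near-identical protein. With windows of 200000 bases there were 279 members, with a median coding length of 1074 bases, a median gap of 793 bases, an antisense RNA gene for 69.9% and a near-identical protein for 19.8%. Between all annotated genes the median gap was 168 bases. Counting antisense RNA genes only where they covered at least 50% of the gene gave 42.6%. Near-identical proteins were found for 57.4% of members at 50% identity and for 26.2% at 100%. The following counts of settings include the main setting. In every setting the members' share with an intron (10 settings) and with an antisense RNA gene (11 settings) lay below the rest of I and II. So did their median coding length (9 settings). The median gap (9 settings) and the share with a near-identical protein (7 settings) lay above the rest in every setting. The share of neighbours on the same strand was below the rest in 5 settings, the main one included, and not below it in 2. Leaving out each end in turn gave a coding length of 867 to 999 bases, an intron share of 15.4% to 22.5%, a gap of 1396 to 1570 bases and an antisense share of 59.6% to 64.6%. Taking 1 gene for each near-identical group, a minimum intron length of 30 bases and a lower coverage of 50% were chosen after seeing the data. No paired analysis was possible because each group has 1 library and no value per library was analysed. The limits are those of an annotation: genes cut by the sequence ends count as annotated, absent untranslated regions widen gaps, and RNA genes were annotated by others.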

Other observations

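The annotation of the ectopic site listed coding sequences for 124 genes in the 4 windows, 2 more than the other annotation. The additional genes were SPBC1348.13, a hypothetical protein gene at the left end of II (chrII:36892-37188 of that annotation), and SPBC8E4.02c, a sequence orphan at the right end of II (chrII:4442574-4444191 of that annotation). In the NCBI annotation the count was 122.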
